A study of Mus musculus with 26 samples.

Results

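The comparison described here set the lumen flush of the injured abdominal aorta against the wall that the flush left behind, both 48 h after injury. It used 12 of the 26 libraries of the series, chosen by their labels alone: 9 injured 48 h flushes, each from a different mouse, and 3 post-flush walls from 3 of those mice (E1A, E2A and E3A). All mice were C57BL6/J and all abdominal aortae had been wounded by mechanical pressure; the labels give no allele, age or sex. The flush is the RNA released when RLT lysis buffer is pushed through the vessel, and the wall is the homogenized remainder, for which the labels name the abdominal aorta but no segment. The other 14 libraries were flushes of the unwounded thoracic aorta of the same 9 mice at 48 h and of the abdominal aorta of 5 other mice at 3 h; they entered the fit only to share its estimate of the spread. The study compares resting with regenerating endothelium, and the wall libraries give the tissue that each flush leaves behind.

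The aorta is lined by a single layer of endothelial cells that rests on a basement membrane. Beneath it lies the media, in which contractile smooth muscle cells alternate with elastic sheets, and outside that the adventitia, with fibroblasts, collagen, small vessels, nerves and fat. Endothelial cells send PDGF-B, endothelin and Notch ligands to receptors on the muscle, and after a loss of cells they migrate and divide to cover the gap.

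The counts were deep enough to test 13884 genes. Totals ran from 3904901 to 11982411 counts in the flushes and from 13853003 to 15560008 in the walls. Genes with at least 1 count numbered 12559 to 13999 and 14807 to 14948. Neither measure overlapped (exact two-sided permutation tests over 220 regroupings, p = 0.00455 for both, the smallest the design allows, and Benjamini-Hochberg adjusted p = 0.00682 for both). The 3 walls were alike, with correlations of log2 CPM (counts scaled to library size by TMM) from 0.988 to 0.99, whereas flushes ranged from 0.79 to 0.971. Flush replicate E2A stood apart. Its median correlation with the other flushes was 0.822, against 0.885 to 0.955 for the others, it had the smallest total, and it gave 13.4% of its counts to the mitochondrial genome, against 2.95% to 4.92% in the other 8 and 10.7% to 11.3% in the walls. Summed over each list, it also carried as much fibroblast and collagen RNA as the walls and more mesothelial RNA. Yet only 5 of 15 tested fibroblast genes were above the wall of the same mouse, with a median log2 difference of -1.33. Results that rest on E2A are given with and without it. The mitochondrial share was lower in the flush than in the wall on average (exact two-sided permutation p = 0.0182, adjusted p = 0.0182). Within mice E1A, E2A and E3A the share differed by -8.22, 2.13 and -5.77 percentage points, flush minus wall. The permutation tests did not use this pairing. The libraries differed in depth in the same direction as the groups, and the median fold change moved with exon length and GC content: on the log2 scale it was 0.389, 0.133 and 0.006 in 3 equal groups of genes from short to long. It was 0.308, 0.197 and -0.004 in 3 equal groups from low to high GC content. The part of depth, length and GC content in the results was not tested gene by gene.

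Of 13884 genes, 3050 were higher in the flush (22.0%) and 1880 lower (13.5%) at an adjusted p under 0.05 in edgeR's quasi-likelihood test with Benjamini-Hochberg adjustment, and 2226 (16.0%) and 1121 (8.07%) of these differed at least 2-fold. In 2470 genes (17.8%) all 9 flushes lay above all 3 walls, and in 2567 genes (18.5%) below. Without flush replicate E2A the counts were 3016 higher (21.8%) and 2131 lower (15.4%), and with mouse as a block they were 2143 (15.5%) and 1324 (9.56%). The excess of higher calls depended on the filter and on the libraries fitted: with no filter on low counts 2728 genes were higher and 2714 lower, and in the 3 mice with both fractions 2074 were higher and 1989 lower. The median log2 fold change of all genes was 0.15, against 0.07 with RLE scaling, so small positive values lie near the centre of the data. In the authors' deposited table of this comparison, 3019 genes were higher and 2148 lower at an adjusted p under 0.05. Because these are bulk libraries, fewer cells of a type and less RNA per cell cannot be told apart in any of these differences.

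**Figure D1:**
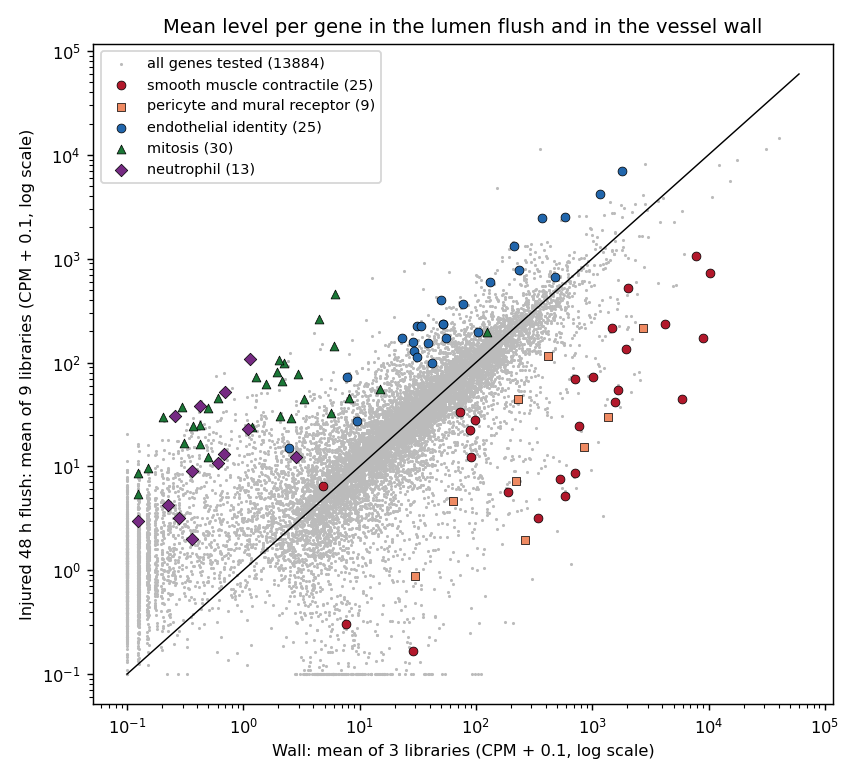
Mean level of each of 13884 genes in the 3 wall libraries (x axis) and in the 9 injured 48 h flush libraries (y axis), both in CPM plus 0.1 on log scales, with the line of equality. Endothelial identity genes lie above the line by a modest distance, with a wall level of 22.1% of the flush level at the median, and mitosis genes lie far above it, at 2.08%, while smooth muscle and pericyte genes lie below it.

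Among called genes with a settled name and groups that did not overlap, the 6 with the largest difference of mean level in favour of the flush were mostly endothelial. They were Heg1, which holds endothelial junctions together, the phosphatase Ptprb, the adhesion molecule Pecam1, the receptor Cd93, the hypoxia factor Epas1 and the clotting protein Vwf. Heg1 ran from 6838 to 10660 CPM with a median of 8043 CPM in the flush and was 3459, 2317 and 2748 CPM in the walls, a 2.87-fold difference (log2 fold change 1.52 ± 0.18, adjusted p = 2.27e-07). On the other side stood Acta2, Myh11, Cald1, Itga8, Tns1 and Lpp, which build the contractile apparatus of smooth muscle and its attachment to the matrix. Itga8, the alpha 8 integrin chain, was 5401, 6919 and 5541 CPM in the walls and ran from 25.4 to 69.1 CPM with a median of 44.8 CPM in the flush. Tns1, which links integrins to actin, was 4826, 6877 and 6867 CPM against 929.7 to 1417 CPM.

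Nearly all endothelial identity genes listed were higher in the flush. Of 25 endothelial identity genes, 24 were higher and none lower, against 22.0% and 13.5% of all genes tested, with a median log2 fold change of 2.18 against 0.15 for all genes. The wall also had a clear endothelial signal: its mean level of these genes was 10.6% to 71.9% of that in the flush, with a median of 22.1%. Whether it came from the lining or from small vessels of the adventitia was not tested. Summed over the list, the walls gave 4251 to 6722 CPM and the flushes 15930 to 25100 CPM, with E2A the lowest.

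Cdh5, the cadherin of endothelial junctions (chr8:104101625-104144511 in GRCm38), was 256, 169 and 211 CPM in the walls and ran from 725 to 1489 CPM with a median of 1410 CPM in the flush (log2 fold change 2.63 ± 0.17, adjusted p = 3.72e-12). Pecam1 was 1343, 802 and 1373 CPM in the walls and ran from 3123 to 5056 CPM with a median of 4270 CPM in the flush (log2 fold change 1.85 ± 0.17, adjusted p = 2.22e-09). Vwf was 708, 449 and 602 CPM against 1881 to 3199 CPM (log2 fold change 2.10 ± 0.18, adjusted p = 6.45e-10). No flush library overlapped a wall library for any of the 3, where 17.8% of all genes had every flush above every wall. Nos3, which makes nitric oxide in endothelium, was 95.3, 23.3 and 38.7 CPM in the walls and 128 to 305 CPM in the flush (log2 fold change 2.18 ± 0.37, adjusted p = 4.21e-05). The wall of mouse E1A was the highest of the 3 for Nos3, Kdr and Tie1. Ecscr and Egfl7, small endothelial proteins of migration and of the matrix, were higher by 2.91 ± 0.18 and 2.74 ± 0.18 log2 units (adjusted p = 1.02e-12 and 6.83e-12).

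Other endothelial regulators were close to equal or low. Erg, the transcription factor that keeps endothelial identity, was 523, 509 and 412 CPM in the walls and ran from 498 to 878 CPM with a median of 689 CPM in the flush, so that the groups overlapped (log2 fold change 0.48 ± 0.17, adjusted p = 0.0273). Its call was lost in 10 of the 23 other settings, among them RLE scaling, leaving out flush E3C or wall E2A or E3A, and the fit with mouse as a block (adjusted p = 0.0954). Kdr, the main VEGF receptor, was low on both sides, at 16.6, 4.85 and 6.77 CPM in the walls and 20.2 to 48.5 CPM in the flush (log2 fold change 1.55 ± 0.54, adjusted p = 0.0277). Its call was lost without wall E2A or E3A and with the block (adjusted p = 0.0556). Robo4 was the 1 member of the list that did not pass, at 4.06, 1.81 and 1.2 CPM and 6.47 to 22.8 CPM (adjusted p = 0.0948). Of 24 tested transcription factors of endothelium, 16 were higher in the flush and 2 lower. Sox17, a factor of arterial endothelium, was 36.3, 21.1 and 35.9 CPM in the walls and 191 to 269.5 CPM in the flush (log2 fold change 2.85 ± 0.22, adjusted p = 8.95e-11). Elk3 and Lmo2 were higher by 1.41 ± 0.12 and 2.56 ± 0.23 log2 units (adjusted p = 1.28e-09 and 2.1e-09). The 2 lower ones were Heyl, a Notch target of mural cells, and Ets2, whose call was lost without wall E1A, so that 1 remained lower there.

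Most junction genes were higher in the flush. Of 20 tested, 13 were higher and 2 lower, against 22.0% and 13.5% of all genes tested. The share that was lower is thus not above that of all genes. F11r, a junctional adhesion molecule, was 52, 35.4 and 45.2 CPM in the walls and 146 to 225 CPM in the flush (log2 fold change 2.11 ± 0.12, adjusted p = 5.5e-13). Esam had a log2 fold change of 2.16 ± 0.16 (adjusted p = 4.72e-11). Jam3, of the same family, went the other way, at 50.1, 43.9 and 46.8 CPM in the walls and 1.85 to 6.4 CPM in the flush (log2 fold change -3.46 ± 0.88, adjusted p = 0.00301). The polarity gene Pard3 was lower too, by less (log2 fold change -0.60 ± 0.15, adjusted p = 0.00214).

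**Figure D2:**
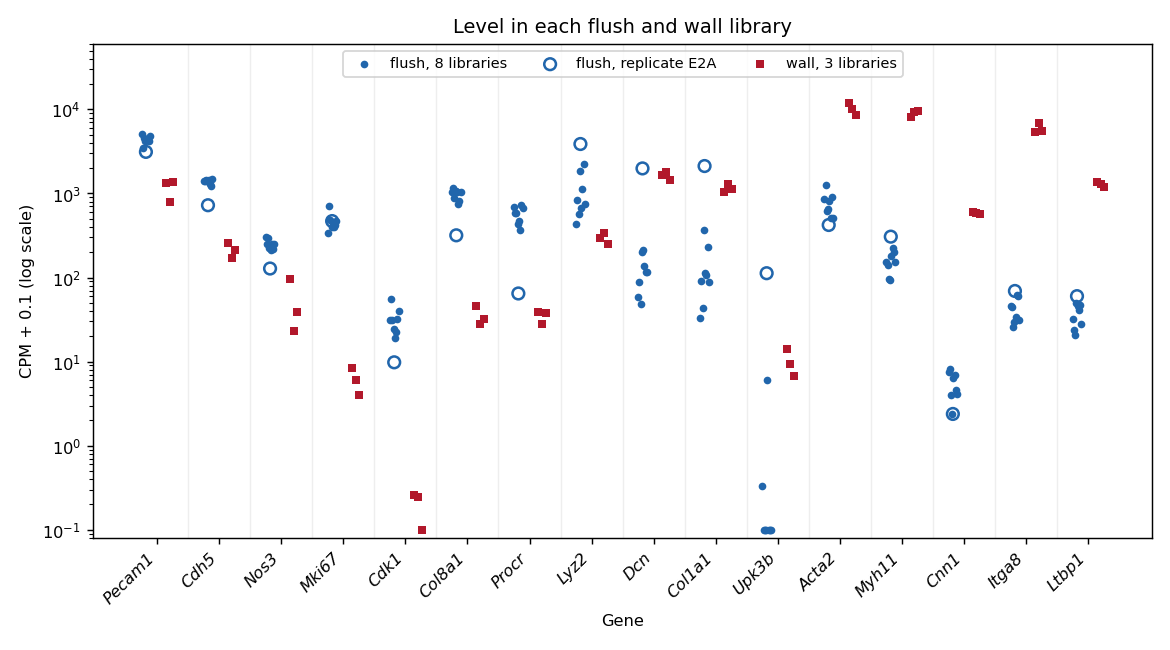
Level of 16 genes in each library, in CPM plus 0.1 on a log scale; filled circles are 8 flush libraries, the open circle is flush replicate E2A and squares are the 3 walls. E2A is the lowest flush for Acta2, at 422 CPM, and the highest for Myh11 and Itga8, at 306 and 69.1 CPM, all far below the walls, and for Dcn, Col1a1 and Upk3b it lies above the other 8 flushes, at 1986, 2120 and 112 CPM.

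Contractile smooth muscle genes were lower in the flush, most of them by a wide margin. Of 25 tested, 24 were lower in the flush and none higher, the median log2 fold change was -4.18, and the flush held 5.53% of the wall level at the median. The summed level was 49420 to 53960 CPM in the walls and 2967 to 4436 CPM in the flushes; E2A, at 3495 CPM, was at the median of the flushes.

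Myh11, the smooth muscle myosin heavy chain (chr16:14194535-14291372), was 8085, 9283 and 9651 CPM in the walls and ran from 93.5 to 306 CPM with a median of 152 CPM in the flush (log2 fold change -5.72 ± 0.35, adjusted p = 1.06e-12). Acta2, smooth muscle actin (chr19:34241090-34255590), was 11940, 10150 and 8602 CPM in the walls and ran from 422 to 1253 CPM with a median of 658 CPM in the flush (log2 fold change -3.81 ± 0.46, adjusted p = 3.29e-07). Cnn1, a regulator of contraction, was 601, 585 and 569.6 CPM in the walls and ran from 2.26 to 8.12 CPM with a median of 4.53 CPM in the flush (log2 fold change -6.82 ± 0.29, adjusted p = 1.97e-12). The flush thus held 7.11% of the wall level for Acta2, 7.2% for Tagln, 1.9% for Myh11 and 0.866% for Cnn1, a spread of levels within 1 marker set. Cald1, Csrp1 and Synpo2, which bind or cross-link actin, differed by -2.88 ± 0.13, -2.77 ± 0.14 and -4.18 ± 0.22 log2 units (adjusted p = 2.19e-15, 8.22e-14 and 8.7e-14). Pln, an inhibitor of the calcium pump, did not pass, at 5.52, 3.91 and 4.81 CPM in the walls and 2.85 to 10.5 CPM in the flush (adjusted p = 0.816).

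Mural receptors and several of their regulators were lower in the flush too. All 9 tested members of the pericyte list were lower in the flush, with a median log2 fold change of -5.07. Abcc9, a subunit of the vascular potassium channel, was 1257, 1522 and 1349 CPM in the walls and 8.9 to 94.5 CPM in the flush, where E2A was the highest (log2 fold change -5.58 ± 0.49, adjusted p = 1.19e-09). Mcam was the least unequal of those named, at 453, 381 and 409.8 CPM against 69.1 to 168 CPM (log2 fold change -1.83 ± 0.23, adjusted p = 5.67e-07). Of 19 transcription factors listed for mural cells, 9 were lower and 1 higher (2 with the block or without wall E1A). Myocd, the coactivator that drives the contractile program, was 386, 359 and 287 CPM in the walls and 0 to 6.24 CPM in the flush (log2 fold change -6.71 ± 0.57, adjusted p = 6.66e-10). Zeb1 and Mef2c had log2 fold changes of -1.25 ± 0.07 and -1.84 ± 0.15 (adjusted p = 5.73e-13 and 2.63e-10). The related coactivator Mkl2 was higher in the flush, at 876 to 1336 CPM against 289, 268 and 311 CPM (log2 fold change 1.93 ± 0.14, adjusted p = 2.58e-11).

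A CArG box, the site read by serum response factor, is the best known element of contractile promoters. In RefSeq's GRCm38.p6 promoters the exact CArG consensus, searched on both strands, was in the 250 bases before the start of 2 of 19 matched muscle genes (10.5%), Myl6 and Myl9, and of 1.62% of 27025 gene symbols. In the last 100 bases it was in Myl6 only, shown here because Myl6 was lower in the flush, with its match in capitals. Myl6 was 97.7, 98.5 and 98.2 CPM in the walls and 19.99 to 36.9 CPM in the flush (log2 fold change -1.81 ± 0.20, adjusted p = 6.51e-08). The window is chr10:128493010-128493109 on the minus strand.
Myl6: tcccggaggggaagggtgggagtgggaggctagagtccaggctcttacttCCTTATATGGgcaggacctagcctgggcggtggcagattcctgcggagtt

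Fibroblast genes were lower in the flush, with E2A near the walls for several of them. Of 15 tested, 11 were lower and 2 higher, and without E2A 13 were lower. The summed level was 8718 to 10800 CPM in the walls, 11430 CPM in E2A and 1843 to 3289 CPM in the other 8 flushes; no marker of the list was at 0 in either group. Dcn, a collagen-binding proteoglycan, was 1663, 1810 and 1458 CPM in the walls, 1986 CPM in E2A and at most 214 CPM in the other flushes (log2 fold change -2.33 ± 0.71, adjusted p = 0.0116; log2 fold change -3.77, adjusted p = 2.39e-08 without E2A). Pdgfra, the PDGF receptor of fibroblasts, was 128, 138 and 139 CPM in the walls, 105 CPM in E2A and at most 25.1 CPM elsewhere in the flush. Mfap5, Gsn and Pi16 were lower in every flush, E2A included (log2 fold changes -2.02 ± 0.17, -2.53 ± 0.26 and -2.26 ± 0.34, edgeR adjusted p = 3.63e-10, 1.9e-08 and 8.25e-06). The 2 higher ones were Cd34 and Ly6a, which endothelial cells express too. Cd34 ran from 210.4 to 522 CPM with a median of 410.3 CPM in the flush and was 169.8, 113 and 106 CPM in the walls (log2 fold change 1.61 ± 0.20, adjusted p = 3.83e-07). Ly6a ran from 239 to 1103 CPM with a median of 785 CPM against 305, 186 and 128 CPM (log2 fold change 1.96 ± 0.43, adjusted p = 0.000714). E2A was the lowest flush for both, and for Ly6a it overlapped the walls.

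Fibrillar collagens showed the same dependence. Of 7 tested, 2 were lower and 1 higher in all flushes, and 5 were lower without E2A. Col1a1 was 1043, 1300 and 1117 CPM in the walls, 2120 CPM in E2A and at most 370.0 CPM in the other flushes, and it did not pass with E2A but did without it (adjusted p = 0.176 with it and 0.00166 without, log2 fold changes -1.71 and -3.12). Col3a1 had the same pattern, at 1553, 1998 and 1414 CPM, 3520 CPM and at most 639.5 CPM (adjusted p = 0.115 and 6.26e-06). Mesothelial markers, too, were highest in E2A by their sum. Upk3b, a marker of mesothelium, was 112 CPM in E2A, 14.2, 9.2 and 6.62 CPM in the walls and at most 5.98 CPM in the other flushes (adjusted p = 0.917, 0.0958 without E2A). The 12 mesothelial markers in the counts, tested or not, summed to 64.5 to 114 CPM in the walls, 91.8 to 329 CPM in 8 flushes and 1051 CPM in E2A. Of the 9 tested, Krt18 and Muc16, 2 in all, were higher in the flush and none lower, and 1 was lower without E2A. The share that was higher is near the 22.0% of all genes. The median log2 fold change of the 9 was 1.41, and -1.71 without E2A. Adipoq, made by fat cells, was 32, 30.6 and 22.6 CPM in the walls and 0 to 17.7 CPM in the flush and did not pass (adjusted p = 0.222). Of 13 fat cell markers 2 were lower, 4 without E2A and 1 without wall E1A. With all libraries the share that was lower is near the 13.5% of all genes.

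**Figure D3:**
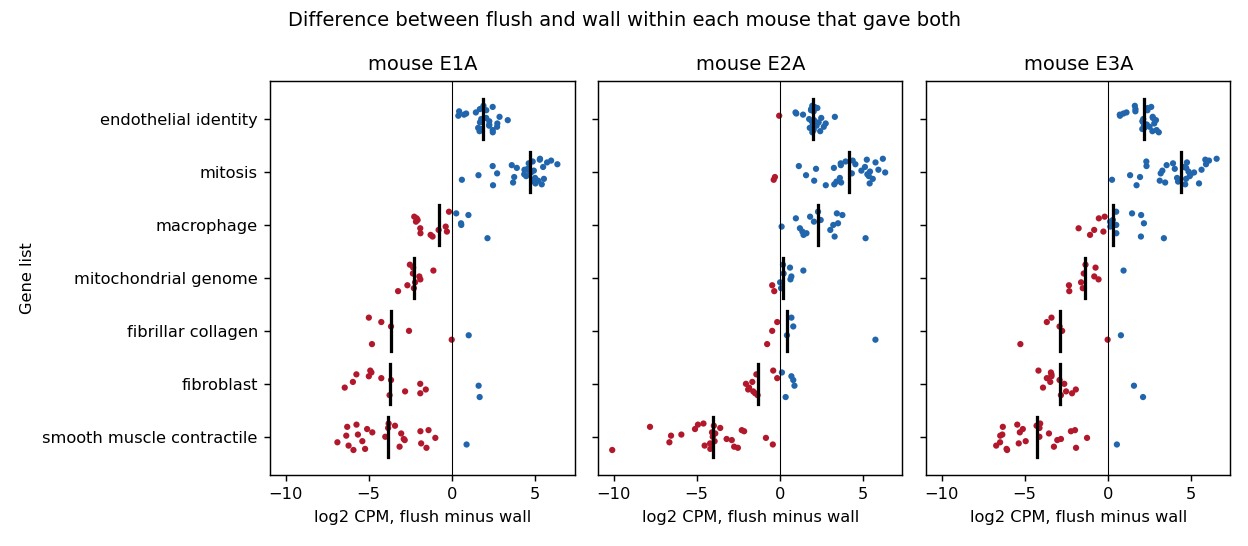
Difference in log2 CPM between flush and wall within each of the 3 mice that gave both, for the tested members of 7 lists; each point is 1 gene and bars are medians. In mouse E2A the fibrillar collagens have a median of 0.44 and the mitochondrial genome 0.22, against -3.65 and -2.30 in E1A and -2.90 and -1.39 in E3A, while the endothelial and muscle medians are alike in all 3.

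Within each mouse the endothelial and muscle lists differed by similar amounts. The median difference of the endothelial list was 1.91, 2.03 and 2.21 log2 units in mice E1A, E2A and E3A, and that of the muscle list -3.83, -4.03 and -4.28. The macrophage list varied between mice, with medians of -0.79, 2.31 and 0.31.

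Many genes of blood cells were higher in the flush. Of 13 tested neutrophil genes 10 were higher in the flush and none lower, with a median log2 fold change of 4.81; 6 passed in the block fit without E2A. The 14 neutrophil genes in the counts, tested or not, summed to 4.21 to 10.5 CPM in the walls and 133 to 645 CPM in the flushes. S100a9, an abundant calcium-binding protein of neutrophils, ran from 40.8 to 226 CPM with a median of 91.1 CPM in the flush and was 1.38, 1.45 and 0.301 CPM in the walls (log2 fold change 6.67 ± 1.07, adjusted p = 2.08e-05). Cxcr2, their chemokine receptor, and Retnlg were also among the 12 largest differences. Ngp and Mmp9 did not pass (adjusted p = 0.0661 and 0.192). Of 10 erythroid genes 9 were higher. The beta globin Hbb-bs, whose reads cannot be told from those of a near-identical copy, ran from 64.8 to 289 CPM with a median of 108 CPM against 9.33, 2.46 and 1.5 CPM. Bpgm and Alas2 were higher by 2.89 ± 0.34 and 4.17 ± 0.88 log2 units (adjusted p = 1.59e-07 and 0.000514).

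B cell genes were low in the flush and near 0 in the wall, while T and NK cell genes were less uniform. Of 8 B cell genes 6 were higher, with a median log2 fold change of 6.03, among them Pax5, their lineage factor, at 4.7 to 22.8 CPM in the flush and 0.162, 0.145 and 0.0752 CPM in the walls (log2 fold change 6.49 ± 1.30, adjusted p = 0.000302). Of 12 T and NK cell genes 6 were higher, and 3 with the block. Their sums were 10.45 to 21.74 CPM in the walls and 21.45 to 76.58 CPM in the flushes, so the groups overlapped. At the highest, a member's wall mean was 232% of its flush mean. Il7r was 3.24 to 12.1 CPM against 0.487, 0.652 and 0.226 CPM (log2 fold change 3.92 ± 0.96, adjusted p = 0.00215; adjusted p = 0.0785 with the block). Nkg7 and Cd3d had no count in any wall, and their flush levels were at least 22.6-fold and 13.8-fold higher against a floor of 3 counts over the wall group. Platelet genes divided. Ppbp, a platelet chemokine, was 28.3 to 238 CPM in the flush and 2.35, 3.62 and 0.978 CPM in the walls (log2 fold change 5.47 ± 0.83, adjusted p = 9.88e-06). Itgb3, which other cells of the vessel also use, was lower (log2 fold change -1.06 ± 0.33, adjusted p = 0.0144), a call lost without wall E2A.

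Ptprc, carried by all leukocytes, ran from 109 to 259 CPM with a median of 218 CPM in the flush and was 17.3, 18.4 and 8.2 CPM in the walls (log2 fold change 3.75 ± 0.55, adjusted p = 6.32e-06). Of 17 macrophage genes 4 were higher and none lower, which is close to the 22.0% of all genes that were higher. The 18 macrophage genes in the counts, tested or not, summed to 819 to 949 CPM in the walls, 821 to 4000 CPM in 8 flushes and 6654 CPM in E2A. Lyz2, a lysozyme of myeloid cells, was 297, 339.7 and 249.5 CPM in the walls and ran from 439 to 3876 CPM with a median of 848 CPM, with E2A the highest at 3876 CPM (log2 fold change 2.22 ± 0.62, adjusted p = 0.00636; adjusted p = 0.00871 without E2A). Itgam was 89.2 to 771 CPM against 19.8, 21.1 and 18.2 CPM (log2 fold change 3.81 ± 0.74, adjusted p = 0.000202). Csf1r, the growth factor receptor of resident and recruited macrophages, overlapped, at 39.3 to 262 CPM and 44.1, 52.7 and 53.2 CPM (adjusted p = 0.323). Of 12 genes of monocytes and recruited myeloid cells 8 were higher and 1 lower. Chil3 ran from 14.2 to 46.3 CPM with a median of 29.3 CPM against 0.243, 0 and 0.0752 CPM (log2 fold change 7.78 ± 1.07, adjusted p = 2.43e-06). The other higher genes included Ccr2, Spp1 and Arg1. The 1 lower was Cd9, a call lost without any of the 3 walls.

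**Figure D4:**
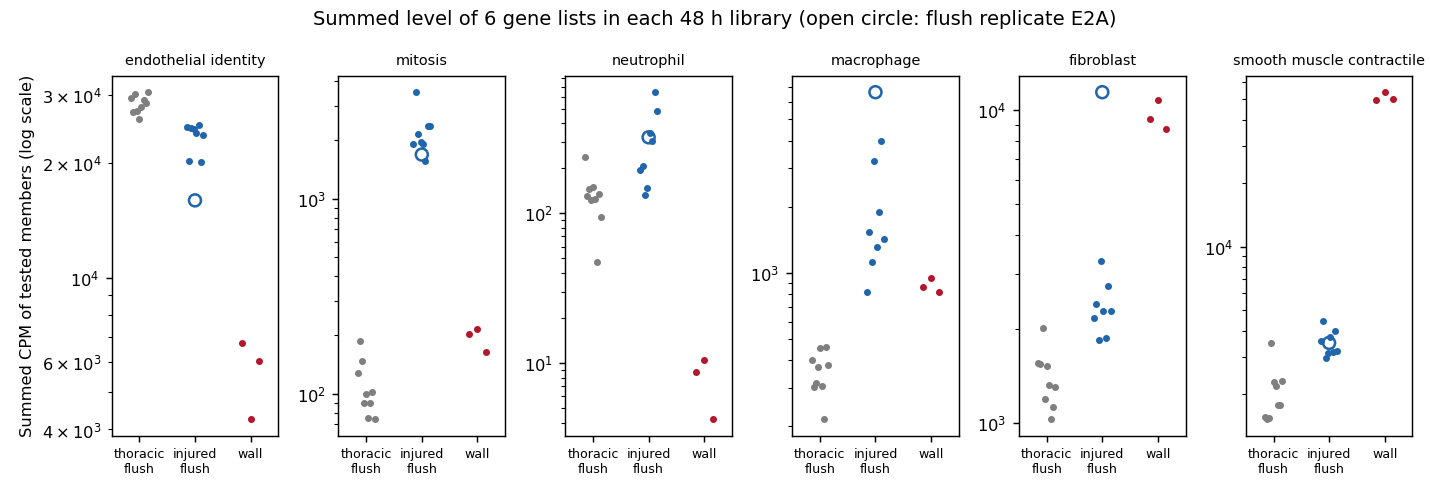
Summed CPM of the tested members of 6 lists in each 48 h library, on log scales; grey points are 9 thoracic flushes, blue points 9 injured abdominal flushes with E2A open, red points 3 walls. The mitosis sum is 1570 to 3517 CPM in the injured flushes, 165 to 215 CPM in the walls and 74.0 to 187 CPM in the thoracic flushes, and the endothelial sums of the walls lie below those of both kinds of flush.

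Mitotic genes had the larger differences between flush and wall. Of 30 tested, 28 were higher in the flush and none lower, with a median log2 fold change of 5.54 against 2.18 for the endothelial list and 0.15 for all genes. The wall held 2.08% of the flush level at the median, and 0.294% to 62.6% over the list. In 28 of 30 genes every flush lay above every wall, E2A included (background 17.8%).

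Mki67, present in cycling nuclei (chr7:135689784-135716361), was 8.28, 6.01 and 3.91 CPM in the walls and ran from 342 to 702 CPM with a median of 419.9 CPM in the flush (log2 fold change 6.23 ± 0.52, adjusted p = 5.77e-10). Its mean in the thoracic flush of the same mice was 37.9 CPM. Top2a, the topoisomerase that untangles chromosomes, was 6, 3.84 and 3.23 CPM in the walls and ran from 158 to 433 CPM with a median of 249 CPM (log2 fold change 5.92 ± 0.89, adjusted p = 8.62e-06). Cdk1, the kinase that starts mitosis, was 0.162, 0.145 and 0 CPM in the walls and ran from 9.71 to 56 CPM with a median of 30.9 CPM (log2 fold change 7.91 ± 0.91, adjusted p = 1.87e-06). The spindle gene Aspm and the checkpoint kinase Bub1 gave 53.2 to 122 CPM and 17.7 to 69.6 CPM in the flush, and no wall exceeded 1.73 and 0.435 CPM. Anln, which bundles actin at the cleavage furrow and is not limited to dividing cells, was 128, 142 and 103 CPM in the walls and 110.2 to 327 CPM in the flush and did not pass (adjusted p = 0.226). Kif20a did not pass either (adjusted p = 0.0589), though all its flushes lay above all walls.

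Genes of DNA replication differed less. Of 27 tested, 16 were higher and none lower, with a median log2 fold change of 2.05; 10 were higher with mouse as a block. Rrm1, a subunit of ribonucleotide reductase, was 20.1, 19.4 and 21.5 CPM in the walls and ran from 62 to 117 CPM with a median of 86.4 CPM in the flush (log2 fold change 2.05 ± 0.19, adjusted p = 4.89e-09). Mcm4 and Pcna, of the replication fork, were higher by 1.61 ± 0.25 and 1.60 ± 0.27 log2 units (adjusted p = 1.42e-05 and 3.21e-05). Mcm2 had no count in E2A and 29.5 to 60.6 CPM in the other flushes, against 5.6, 5.14 and 4.51 CPM in the walls (adjusted p = 0.0867, 0.0346 without E2A).

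Promoters of mitotic genes are known to share a cell cycle homology region, read here as TTTGAA or its reverse complement TTCAAA, and CCAAT boxes, read as CCAAT or ATTGG, on either strand. The RefSeq table for GRCm38.p6 held a promoter for 25 of the 30 mitosis genes tested. In the 100 bases before the start, the first motif was in 7 of the 25 (28.0%) and in 6.76% of all 27025 symbols. There a CCAAT box was in 18 of the 25 (72.0%), in 21.6% of all and in 8 of 19 matched muscle genes (42.1%). In the 250 bases before the start, the first motif was in 40.0% of the 25 and 18.3% of all. A CCAAT box was there in 80.0% and 37.5%. These are matches of letters and not sites shown to be bound. The 7 windows of 100 bases are given 5′ to 3′ with every match of either motif in capitals; no 2 matches overlap. They lie at chr4:118437344-118437443 (Cdc20, minus strand), chr10:69352913-69353012 (Cdk1, minus), chr19:37376282-37376381 (Kif11, plus), chr7:135716380-135716479 (Mki67, minus), chr7:80294376-80294475 (Prc1, plus), chr11:99024190-99024289 (Top2a, minus) and chr2:164769829-164769928 (Ube2c, plus).
Cdc20: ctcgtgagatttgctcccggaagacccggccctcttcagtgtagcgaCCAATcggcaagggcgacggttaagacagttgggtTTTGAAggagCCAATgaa
Cdk1: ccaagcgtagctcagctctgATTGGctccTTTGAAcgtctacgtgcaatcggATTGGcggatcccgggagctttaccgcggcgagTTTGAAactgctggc
Kif11: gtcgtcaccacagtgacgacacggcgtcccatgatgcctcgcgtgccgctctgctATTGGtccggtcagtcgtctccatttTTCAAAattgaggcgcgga
Mki67: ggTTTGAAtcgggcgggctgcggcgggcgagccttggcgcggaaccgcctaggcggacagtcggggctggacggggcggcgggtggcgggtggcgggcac
Prc1: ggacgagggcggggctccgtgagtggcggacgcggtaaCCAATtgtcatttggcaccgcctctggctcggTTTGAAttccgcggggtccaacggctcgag
Top2a: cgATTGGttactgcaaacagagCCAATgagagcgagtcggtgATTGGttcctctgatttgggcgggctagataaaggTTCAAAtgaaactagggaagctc
Ube2c: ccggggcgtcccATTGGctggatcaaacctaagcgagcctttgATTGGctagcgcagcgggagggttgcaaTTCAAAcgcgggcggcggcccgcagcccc

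All 7 genes were higher in the flush. The ubiquitin-conjugating enzyme Ube2c ran from 21.5 to 83.4 CPM with a median of 47.7 CPM against 1.14, 0.217 and 0.15 CPM. The spindle motor Kif11 ran from 46.2 to 135 CPM with a median of 75 CPM against 3.08, 1.3 and 1.13 CPM. The midzone protein Prc1 ran from 33.4 to 115 CPM with a median of 64 CPM against 1.62, 2.83 and 1.73 CPM. Cdc20, which activates the anaphase-promoting complex, ran from 7.14 to 29.96 CPM with a median of 14.6 CPM against 0.0811, 0.435 and 0.451 CPM. None of these 4 overlapped between the groups (edgeR adjusted p = 6.83e-05, 0.000103, 1.67e-05 and 0.000319). They come from the mitosis list, in which 28 of 30 genes did not overlap. Of all genes tested, 17.8% had every flush above every wall. The 4 therefore add nothing about the motifs.

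**Figure D5:**
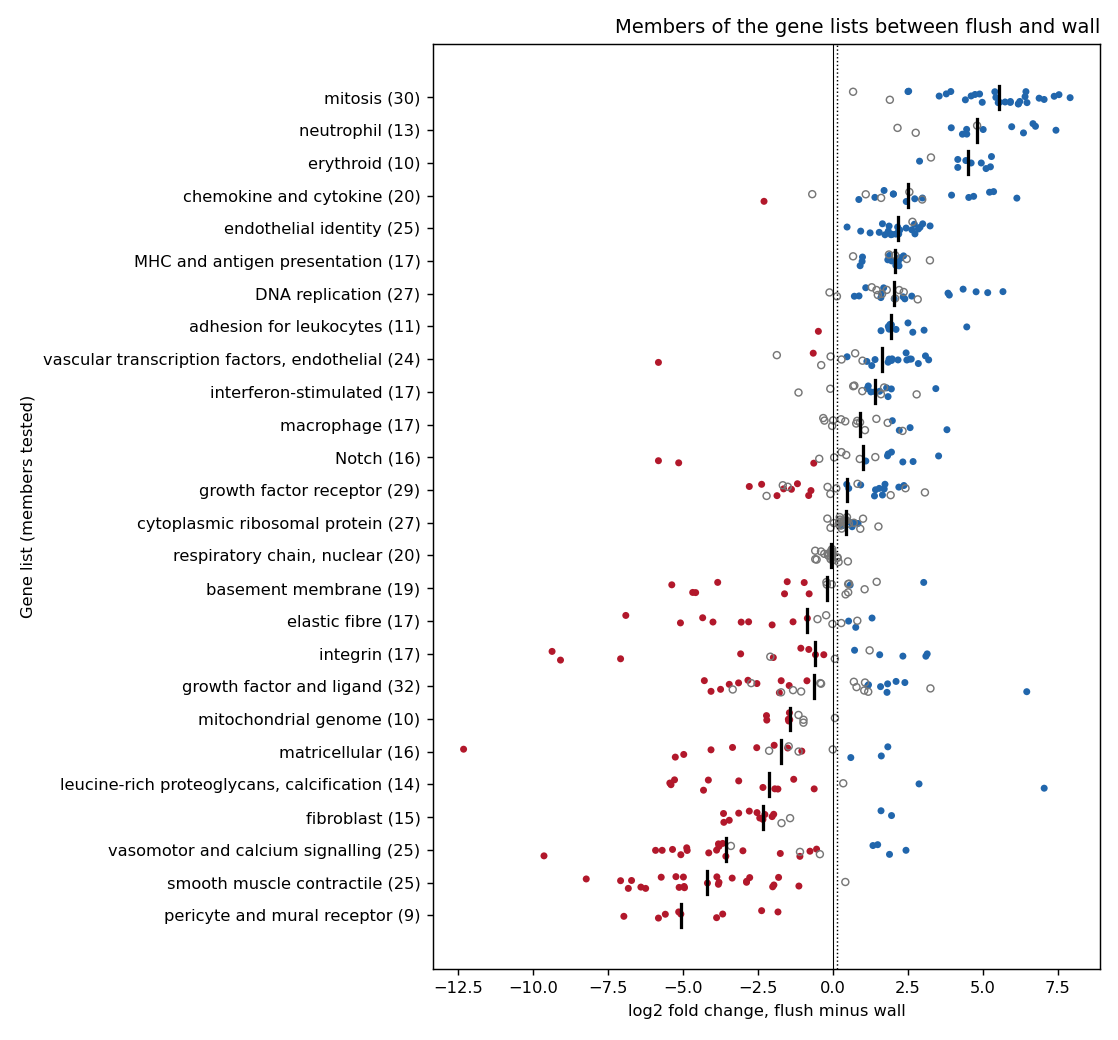
Log2 fold change, flush minus wall, of each tested member of 26 gene lists; blue and red points passed the threshold as higher and lower in the flush, open points did not pass, bars are list medians, and the dotted line is the median of all genes at 0.15. Medians of the lists drawn run from 5.54 for mitosis to -5.07 for pericyte and mural receptors, with the nuclear genes of the respiratory chain at -0.05.

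In the 3 matrix lists that follow, more genes were lower than higher in the flush. Of all genes, 13.5% were lower and 22.0% higher. In the main fit the share that was higher in each of the 3 lists was not above that of all genes. Of 14 small leucine-rich proteoglycans and calcification inhibitors 11 were lower in the flush and 2 higher (1 with the block), of 17 elastic fibre genes 9 were lower and 3 higher (1 without wall E3A), and of 19 basement membrane genes 8 were lower and 2 higher (4 with the block). Prelp and Ogn, proteoglycans of collagen fibres, were 2215, 3051 and 2390 CPM and 1866, 2536 and 2025 CPM in the walls and 25.5 to 279.5 CPM and 14.4 to 193 CPM in the flush, with E2A the highest for both (log2 fold changes -5.28 ± 0.51 and -5.39 ± 0.62, edgeR adjusted p = 5.91e-09 and 1.27e-07). Ltbp1 and Mfap4, which bind to microfibrils, were 1379, 1311 and 1201 CPM and 941, 1109 and 864 CPM in the walls and at most 59.96 and 43.4 CPM in the flush (log2 fold change -5.08 ± 0.31, adjusted p = 1.2e-12 for Ltbp1). Eln itself, the elastin gene, did not pass: it was 1058, 2727 and 1786 CPM in the walls and ran from 793 to 2042 CPM with a median of 1215 CPM in the flush (adjusted p = 0.144; it passed without wall E1A). Mgp, which restrains calcification, did not pass either, at 2454, 1668 and 2490 CPM and 1457 to 4402 CPM (adjusted p = 0.401).

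Some matrix genes were higher in the flush. Col8a1, a short-chain collagen, ran from 318 to 1161 CPM with a median of 1037 CPM in the flush and was 46, 27.6 and 32.4 CPM in the walls (log2 fold change 4.67 ± 0.47, adjusted p = 1.25e-08), and the thoracic flushes averaged 38.7 CPM. Of 9 interstitial collagens outside the fibrillar group it was the 1 higher, while 5 were lower (2 with the block, 3 without any 1 of the walls). Lama3, a laminin chain, ran from 17.1 to 120.0 CPM with a median of 71.3 CPM against 9.49, 7.03 and 8.2 CPM (log2 fold change 3.03 ± 0.42, adjusted p = 2.17e-06). Col5a2, Nid1 and Fbln2 were higher by smaller amounts (log2 fold changes 0.88 ± 0.13, 0.58 ± 0.14 and 1.31 ± 0.21). On the wall side of the basement membrane stood Lama4, at 221, 197 and 205 CPM against 45.5 to 121 CPM (log2 fold change -1.61 ± 0.20, adjusted p = 6.12e-07). There too stood Col4a5, at 250.0, 292 and 244 CPM against 0 to 69.4 CPM (log2 fold change -4.57 ± 0.74, adjusted p = 2.55e-05). Of 16 matricellular genes 9 were lower and 3 higher (1 without flush E1C or wall E3A, 0 without wall E1A). Postn, secreted by activated fibroblasts and muscle, was 2617, 2817 and 2114 CPM in the walls and 15.6 to 281 CPM in the flush (log2 fold change -4.97 ± 0.60, adjusted p = 3e-07). Cyr61 was higher in the flush, at 608 to 1255 CPM against 165, 361 and 373 CPM (log2 fold change 1.62 ± 0.45, adjusted p = 0.00565), a call lost without wall E1A.

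A PDGF ligand and its receptor fell on opposite sides. Pdgfb, the PDGF ligand of endothelium, ran from 26.3 to 63.1 CPM with a median of 52.1 CPM in the flush and was 11.4, 5.43 and 11.1 CPM in the walls (log2 fold change 2.40 ± 0.64, adjusted p = 0.00458; adjusted p = 0.0615 with mouse as a block). Its receptor Pdgfrb was 176, 239.8 and 272 CPM in the walls and ran from 28.4 to 72 CPM with a median of 40.9 CPM in the flush (log2 fold change -2.37 ± 0.39, adjusted p = 2.52e-05). Neither gene overlapped between the groups. Edn1, the vasoconstrictor endothelin, ran from 334 to 765 CPM with a median of 476 CPM in the flush and was 39.7, 181 and 129 CPM in the walls (log2 fold change 2.11 ± 0.54, adjusted p = 0.00324). Its receptor Ednra overlapped, at 3.33 to 29.7 CPM and 25, 36.9 and 25.8 CPM, and did not pass (adjusted p = 0.218). Apln, the peptide of sprouting endothelium, ran from 1.14 to 46.7 CPM with a median of 20.03 CPM against 0.325, 0 and 0.301 CPM, with E2A the lowest (log2 fold change 6.47 ± 1.24, adjusted p = 0.000949).

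Over the whole lists, 8 of 32 ligands were higher and 11 lower (7 without any 1 of the walls), and 11 of 29 growth factor receptors were higher and 8 lower, where 22.0% of all genes were higher and 13.5% lower. The share of ligands that were higher is thus close to that of all genes. The receptors Tek and Tie1 of the angiopoietins and Met of hepatocyte growth factor were higher by 1.74 ± 0.17, 2.20 ± 0.25 and 2.37 ± 0.32 log2 units (adjusted p = 1.17e-08, 8.89e-08 and 1.73e-06). The TGF-beta and BMP receptors Tgfbr1 and Bmpr1a were lower, at 338, 236 and 222 CPM and 1119, 1051 and 1017 CPM in the walls and 70.5 to 94.8 CPM and 252 to 402 CPM in the flush (log2 fold change -1.64 ± 0.13, adjusted p = 2.59e-10 for Tgfbr1). Among ligands, Inhba was 230.1, 247 and 238 CPM in the walls and 9.56 to 25.7 CPM in the flush (log2 fold change -3.74 ± 0.25, adjusted p = 9.7e-12). Tgfb3 was 290.2, 224 and 195 CPM against 5.18 to 39.1 CPM (log2 fold change -4.28 ± 0.55, adjusted p = 7.99e-07). Vegfc, the lymphatic growth factor, was higher in the flush (log2 fold change 1.83 ± 0.34, adjusted p = 0.000116).

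Notch and Wnt genes also divided between the fractions. Of 16 Notch genes 7 were higher in the flush and 3 lower, where 22.0% and 13.5% of all genes were. The share of Notch genes that were lower is thus near that of all genes. Notch1 and Notch4, the receptors of endothelium, were 85.4, 41.1 and 69.3 CPM and 28.3, 13.3 and 22.6 CPM in the walls and 129 to 312 CPM and 53.7 to 117 CPM in the flush (log2 fold changes 1.85 ± 0.23 and 1.96 ± 0.24, edgeR adjusted p = 4.37e-07 and 5.01e-07). Notch3, the receptor of mural cells, was 27.8, 33.5 and 27.7 CPM in the walls and 0 to 2.91 CPM in the flush (log2 fold change -5.14 ± 1.32, adjusted p = 0.00756). Heyl, its target, was 639, 954 and 941 CPM against 9.18 to 22.8 CPM (log2 fold change -5.81 ± 0.54, adjusted p = 3.34e-09). Of 19 Wnt genes 10 were lower (6 with the block) and 3 higher. The share of Wnt genes that were higher is not above that of all genes. The secreted inhibitor Dkk3 was 1066, 1251 and 1076 CPM in the walls, 106 CPM in E2A and at most 10.7 CPM in the other flushes (log2 fold change -6.21 ± 0.70, adjusted p = 9.95e-08). Frizzled receptors split by member. Fzd6 was 61.7, 61.4 and 63.4 CPM in the walls and 218 to 268 CPM in the flush (log2 fold change 1.97 ± 0.10, adjusted p = 8.7e-14). Fzd4 was higher by 1.01 ± 0.17 log2 units, and Fzd7 and Fzd1 were lower (-3.14 ± 0.32 and -1.78 ± 0.29).

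The cytoskeleton and its attachments differed by isoform. Of 16 actin, myosin and tropomyosin genes 8 were lower in the flush and 6 higher. Actb, cytoplasmic beta actin, did not pass: it was 1436, 1725 and 1560 CPM in the walls and ran from 1214 to 2304 CPM with a median of 1640 CPM in the flush (adjusted p = 0.61). Actg1, the gamma actin, whose reads cannot be told from those of near-identical copies, was 8.44, 9.997 and 10.4 CPM in the walls and 21.5 to 38.3 CPM in the flush (log2 fold change 1.67 ± 0.27, adjusted p = 2.93e-05). Of the nonmuscle myosins, Myh9 was higher in the flush, at 616 to 892 CPM against 278, 258 and 259.9 CPM (log2 fold change 1.57 ± 0.19, adjusted p = 2.1e-07). Myh10 was lower, at 162 to 204 CPM against 949, 1277 and 1177 CPM (log2 fold change -2.64 ± 0.24, adjusted p = 2.83e-09). Tpm3 was higher and Tpm2 lower (log2 fold changes 1.89 ± 0.15 and -4.94 ± 0.39), and none of these 4 overlapped between the groups. Of all genes, 17.8% had every flush above every wall and 18.5% every flush below.

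Integrins lay on both sides, with more of them lower in the flush. Of 17, 9 were lower in the flush and 5 higher (3 with the block, 2 without wall E2A or E3A). Of all genes, 13.5% were lower and 22.0% higher (15.5% higher with the block). The share of integrins that were higher is thus near that of all genes. The flush side held Itgb4, the laminin receptor chain, at 139.6 to 265 CPM against 66, 22.1 and 38.9 CPM (log2 fold change 2.34 ± 0.27, adjusted p = 1.88e-07), and Itga4 (log2 fold change 1.56 ± 0.37, adjusted p = 0.00158). The wall side held Itga8, given above, Itga9 (log2 fold change -1.98 ± 0.16, adjusted p = 3.43e-10) and Itgb5 (log2 fold change -3.07 ± 0.26, adjusted p = 6.35e-10). Most vasomotor and calcium genes were lower in the flush: 18 of 25 were lower and 4 higher. Gucy1b3, a subunit of the nitric oxide receptor of muscle, was 179, 230.3 and 192 CPM in the walls and 7.08 to 26.8 CPM in the flush (log2 fold change -4.13 ± 0.32, adjusted p = 1.15e-10). Mrvi1, a substrate of the kinase downstream of it, was 596, 594 and 586 CPM against 2.66 to 27.4 CPM (log2 fold change -5.91 ± 0.40, adjusted p = 1.41e-09). The IP3 receptors Itpr2 and Itpr3, calcium channels of the endoplasmic reticulum, were higher in the flush (log2 fold changes 1.34 ± 0.16 and 1.89 ± 0.25).

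Many genes that act at the blood surface were higher in the flush. Of 11 leukocyte adhesion genes 10 were higher and 1, Cd99l2, lower, a call lost without any 1 of the walls. Icam1, the integrin ligand, was 60.4, 37.1 and 53.5 CPM in the walls and ran from 133 to 222 CPM with a median of 199 CPM in the flush (log2 fold change 1.96 ± 0.18, adjusted p = 3.61e-09). Of 19 genes of coagulation and fibrinolysis 11 were higher (7 without wall E2A) and 4 lower (2 without wall E1A or E3A). Procr, the endothelial receptor of protein C, was 38.7, 28.2 and 37.9 CPM in the walls, 64.5 CPM in E2A and 367 to 726 CPM in the other flushes (log2 fold change 3.87 ± 0.47, adjusted p = 3.8e-07). F5, coagulation factor V, ran from 53.2 to 131 CPM with a median of 69.2 CPM against 9.57, 7.24 and 6.99 CPM (log2 fold change 3.30 ± 0.35, adjusted p = 3.89e-08). Serpine2, a protease inhibitor of the serpin family, was 651, 635 and 471 CPM in the walls and at most 10.6 CPM in the flush (log2 fold change -6.69 ± 0.46, adjusted p = 2.23e-09). Tissue factor, F3, which starts coagulation outside the endothelium, was 95.2, 111 and 168 CPM against 0 to 17.1 CPM (log2 fold change -5.23 ± 0.91, adjusted p = 5.67e-05).

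Many immune genes were higher as well. Of 17 genes of antigen presentation 12 were higher and none lower. H2-D1, a class I gene whose reads may be shared with its near copies, ran from 768 to 1207 CPM with a median of 929.5 CPM against 308, 229.9 and 248 CPM (log2 fold change 1.89 ± 0.17, adjusted p = 1.78e-09). Of 17 interferon-stimulated genes 9 were higher and none lower, with the smallest p for Ifitm3 (log2 fold change 1.27 ± 0.14, adjusted p = 9.88e-08). Of 20 chemokines and cytokines 14 were higher and 1 lower, but 8 were higher with the block and 7 to 9 without any 1 of the walls. Il1b was 13.9 to 59.6 CPM in the flush and 0.892, 1.38 and 0 CPM in the walls (log2 fold change 5.36 ± 0.87, adjusted p = 2.47e-05). The 1 lower was Ccl11, at 51.8, 30.2 and 30.9 CPM in the walls and 2.71 to 20.8 CPM in the flush (log2 fold change -2.29 ± 0.56, adjusted p = 0.00195). Neutrophil and lymphocyte genes moved with these lists, and their part in them was not tested.

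Immediate early and housekeeping genes made up the remaining lists. Of 26 immediate early genes 11 were higher (7 without wall E2A, 6 without wall E3A) and 1, Nr4a3, lower (0 with the block or without wall E1A). The higher ones included Jun (log2 fold change 1.10 ± 0.18, adjusted p = 2.81e-05) and Dusp6 (log2 fold change 2.22 ± 0.40, adjusted p = 7.99e-05). Of 23 genes of the unfolded protein response 7 were higher (22.0% of all genes were) and none lower, with the smallest p for the disulfide isomerase Pdia6 (log2 fold change 1.36 ± 0.14, adjusted p = 1.85e-08). Of 27 cytoplasmic ribosomal protein genes 7 were higher (3 to 4 without any 1 of the walls or flush E1B, 4 with the block), which is close to the 22.0% of all genes. None of the 20 nuclear genes of the respiratory chain passed in edgeR (3 were lower with RLE scaling, 4 in DESeq2, and 1 with the block or without flush E1B, E3B or E3C), and their median log2 fold change was -0.05. Of 10 genes of the mitochondrial genome 6 were lower, and 9 without E2A. The cytochrome b gene mt-Cytb was 32160, 32010 and 29440 CPM in the walls, 33950 CPM in E2A and 6567 to 10420 CPM in the other flushes (log2 fold change -1.47 ± 0.36, adjusted p = 0.00217; adjusted p = 4.42e-07 without E2A).

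Some of the largest differences were in genes with no count in 1 fraction. Of the genes tested, 127 had at least 100 counts over the 3 walls and none in any of the 9 flushes, and 108 of these were at 0 in the other 14 flush libraries too. They included all 12 of the largest negative fold changes among called genes with a settled name, no overlap and a wall mean of at least 20 CPM: Fibin, Wisp2, Speg, Jph2, Wscd2, Fbxo40, Kcnd3, Grip2, Mn1, Ky, Tcap and Ptgfr. In DESeq2 the calls of Wscd2, Fbxo40, Mn1, Ky, Tcap and Ptgfr were lost (adjusted p = 0.0627 to 0.08). Speg and Jph2, which organize the calcium stores of muscle, were 83.7, 119 and 92.1 CPM and 122, 75.3 and 79.2 CPM in the walls, at least 2470-fold and 2280-fold higher than a floor of 3 counts over the flush group. Fibin was 115, 110.2 and 109 CPM in the walls, at least 2780-fold higher. The 127 genes had a median GC content of 54.6%, against 48.4% for all genes tested. Why these genes had no count in any flush, E2A included, was not tested. The fold bounds take those zeros as they stand.

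On the other side, 148 genes had at least 100 counts over the flushes and none in the walls, with a median GC content of 44.9%, and 23 of them (15.5%, against 3.54% of all genes tested) were olfactory or vomeronasal receptors. Acsm2, an enzyme of kidney and liver, had the largest positive fold change among called genes with a settled name, no overlap and a flush mean of at least 20 CPM. It ran from 3.74 to 45.5 CPM with a median of 16.8 CPM in the flush, with no count in the walls, and its mean in the thoracic flush was 97.6 CPM. Fgb, a fibrinogen chain made by the liver, ran from 3.91 to 67.5 CPM with a median of 21.7 CPM and averaged 82.7 CPM in the thoracic flush. Lrrc37a ran from 8.65 to 58.4 CPM with a median of 23 CPM and averaged 138 CPM. The mean levels of Acsm2, Fgb and Lrrc37a were thus higher in the thoracic flushes, whose totals were 1755773 to 5294304 counts, than in the injured ones. Whether such counts come from transcripts of these genes was not tested. Olr1, a receptor of oxidized lipoprotein, had one of the 12 largest positive fold changes under the same conditions. It ran from 15.1 to 120.5 CPM with a median of 29.9 CPM in the flush and was 0.487, 0.507 and 0 CPM in the walls (log2 fold change 6.90 ± 1.25, adjusted p = 9.4e-05).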

How the data were processed

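Per the labels' protocols, lumen flushes in RLT buffer and homogenized post-flush vessels gave total RNA, and libraries were made with a NuGEN Ultralow V2 kit. The submitters' processing notes name HISAT2 2.0.3, HTSeq, DESeq2 1.14.1 and GRCm38, and the authors deposited raw counts per gene symbol. They also deposited a table of this comparison with log2 fold changes and p-values, from which counts of calls only were taken; its sign was checked against the counts.

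From the counts, edgeR 4.0.16 (R 4.3.3) fitted 1 quasi-likelihood model with 4 groups to all 26 libraries, with TMM scaling, edgeR's filter on low counts and Benjamini-Hochberg adjustment over 13884 genes (threshold 0.05). Levels are TMM-scaled CPM. Library properties were compared with exact permutation tests that treated the 12 libraries as independent. Each replicate is a separate mouse. Flush and wall of mice E1A, E2A and E3A come from the same animal, so mouse was used as a block in an alternative; same-mouse deviations correlated at 0.014, 0.134 and 0.0447. The 3 walls each belong to a different labelled experimental batch. Alternatives were DESeq2 1.42.0, RLE and TMMwsp scaling, other filters, subsets of libraries, batch as a covariate, thinning to 3904901 counts and leaving out each library.

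Members and gene lists were chosen with earlier results of these data known. Named genes were, among called genes with settled symbols, no overlap and at least 20 CPM in the higher group, the 12 largest fold changes and 6 largest differences in each direction; from each list up to 5 members, taken by p-value; and a fixed set, of which Xist was not analysed here and 1 other gene is not reported here. Cdc20, Kif11, Prc1, Ube2c, Myl6 and Myl9 were named for their promoters. Gene positions are from GENCODE M21 and promoters from RefSeq (GRCm38.p6). Values after ± are standard errors from the quasi-likelihood fit, taken as the absolute log2 fold change over the square root of F. They include the spread between libraries. Floors cover counting error only.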

Additional observations from a re-analysis of the deposited data

Results flagged for a closer look

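Among the 9 flushes, 33 of 182 measures had 1 library whose gap to its nearest neighbour exceeded Dixon's 95% critical share of the group's range (genes on the log2 CPM scale). Chance alone flags about 1 in 20. Flush replicate E2A was that library for 30 of them. It was the highest for its mitochondrial share of 13.4% and for genes of fibroblasts, matrix, mural signalling, mesothelium and the mitochondrial genome, namely Bmpr1a (402 CPM), Col3a1 (3520 CPM), Dcn (1986 CPM), Dkk3 (106 CPM), Fzd1 (224 CPM), Gsn (258 CPM), Gucy1b3 (26.8 CPM), Lama4 (121 CPM), Mfap4 (43.4 CPM), Mfap5 (155 CPM), Prelp (279.5 CPM), Tgfb3 (39.1 CPM), Upk3b (112 CPM) and mt-Cytb (33950 CPM).

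It was the lowest for genes most of which are of endothelium, namely Apln (1.14 CPM), Cd93 (1291 CPM), Cdh5 (725 CPM), Col8a1 (318 CPM), Ecscr (117 CPM), Elk3 (219 CPM), F11r (146 CPM), Fzd4 (402 CPM), Icam1 (133 CPM), Lama3 (17.1 CPM), Ly6a (239 CPM), Mcm2 (0 CPM), Nos3 (128 CPM), Procr (64.5 CPM) and Tie1 (116 CPM). Libraries other than E2A stood apart for 3 genes: Mki67 was highest in E1B at 702 CPM, Serpine2 was lowest in E2B, with no count (0 CPM), and Tns1 was highest in E3A at 1417 CPM. Why these libraries differed was not tested.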

How the results depend on the processing

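Across 23 other settings no named gene reversed. Of 179 named genes, 163 passed the threshold; 27 of these lost it in at least 1 setting, 8 on leaving out a single library and 5 with the replicate block, and 10 others passed in at least 1. A minimum mean of 10 CPM left 1986 genes higher and 1152 at least 2-fold higher, with fewer genes tested. A fit to the 12 libraries alone called 2961 lower, and no filter on low counts called 1868 at least 2-fold lower; the cause was not tested. With mouse as a replicate block, 2143 genes were higher and 1324 lower, 1571 and 765 of them at least 2-fold, and with flush E2A also left out, a setting chosen after seeing the data, 1974 were higher and 1427 at least 2-fold higher, with fewer samples. The calls of Erg, Kdr, Pdgfb, Il7r and Nr4a3 were lost with the block, and no other named call was. Leaving out each library in turn gave 2109 to 3016 higher genes, 1486 to 2131 lower, 1601 to 2200 at least 2-fold higher and 960 to 1278 at least 2-fold lower. The wall has 3 libraries from 3 mice, each in a batch of its own, and flush depth was below wall depth throughout, which limits low genes.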

Other observations

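Among lists outside the comparisons above, most caveola genes were higher in the flush. Of 9 caveola genes 6 were higher in the flush and none lower, where 22.0% and 13.5% of all genes were, with a median log2 fold change of 0.67; Sdpr, a cavin coat protein, was 309, 279 and 280.3 CPM in the walls and 828 to 1422 CPM in the flush (log2 fold change 2.09 ± 0.15, adjusted p = 1.67e-11 in edgeR). The next lists lay nearer to those shares. Of 14 genes of lipid uptake and transport 3 were lower and 1 higher. Lrp1, a scavenger receptor of the lipoprotein receptor family, was 475, 406 and 547 CPM in the walls and 50.3 to 387 CPM in the flush (log2 fold change -1.80 ± 0.54, adjusted p = 0.0103), and Abcg1, a cholesterol exporter, was higher in the flush (log2 fold change 2.39 ± 0.48, adjusted p = 0.000306). Of 20 genes of glycolysis and the hypoxia response 3 were higher and 2 lower, both below the shares of all genes; Pfkp, a phosphofructokinase, was lower (log2 fold change -1.25 ± 0.30, adjusted p = 0.00172) and Ldha, lactate dehydrogenase, higher (log2 fold change 0.71 ± 0.16, adjusted p = 0.00096). Ddx3y, a gene of the Y chromosome expressed in all male cells, had counts in all 12 libraries, at 185, 178 and 164 CPM in the walls and 112 to 120.4 CPM in the flush.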
